A study of Mus musculus with 8 samples.

Results

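The replication-independent histone variants are histone genes whose mRNAs are polyadenylated, in contrast to the clustered histone genes that are switched on in S phase. The 10 genes were taken by symbol from the 26667 rows of the raw count table: H3f3a and H3f3b, which encode H3.3; H1f0, which encodes the linker histone H1.0; H2afz and H2afv, which encode the H2A.Z proteins; H2afx; the macroH2A genes H2afy and H2afy2; H2afj; and Cenpa. All 10 were found and all 10 passed the filter on low counts. They were measured by RNA-seq of formalin-fixed, paraffin-embedded undifferentiated pleomorphic sarcoma (UPS) from 4 KP and 4 KPH2 tumours, with 1 library per tumour, to ask what loss of Epas1, which encodes HIF-2α, does to expression in these lesions. KP mice carry Trp53 fl/fl with intact Epas1 (labelled wild type). KPH2 mice share every engineered allele of the KP mice and carry Epas1 fl/fl as well (labelled Epas1 -/-). Both groups were of the strain Mixed 129/C57BL/6, at least 8 weeks old, and received adenoviral Cre (Ad-Cre) in the hind limb muscle, and were killed at 7 weeks after it or once a tumour reached the size limit, so recombination is limited to infected cells and host cells keep their Epas1. Separate tumours are the replicates, and the p-values between groups set a difference against the spread among tumours.

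Histones package DNA into nucleosomes. The clustered genes supply most histone protein while DNA is copied, whereas variants can be made outside S phase, some of them with their own timing in the cell cycle, and many are placed by dedicated chaperones. H3.3 is deposited at transcribed genes and regulatory elements by HIRA, and at repeats and telomeres by DAXX and ATRX. H2A.Z is exchanged into nucleosomes at promoters by the SRCAP and p400 complexes, H2A.X is phosphorylated beside DNA breaks, macroH2A carries a large non-histone domain and is associated with repressed chromatin, H1.0 accumulates in differentiated and quiescent cells, and CENP-A marks the centromere.

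The H3.3 and H2A.Z genes are pairs that encode the same or nearly the same protein from different nucleotide sequences, and this is what allows a read to be assigned to one gene of a pair. The first 90 coding bases of each are shown from the GENCODE transcripts of GRCm38, with the bases that differ within a pair in capitals.
H3f3a: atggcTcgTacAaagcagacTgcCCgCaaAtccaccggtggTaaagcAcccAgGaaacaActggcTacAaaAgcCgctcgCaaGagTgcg
H3f3b: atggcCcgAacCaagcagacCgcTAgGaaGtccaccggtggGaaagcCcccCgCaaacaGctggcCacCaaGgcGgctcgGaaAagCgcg
H2afz: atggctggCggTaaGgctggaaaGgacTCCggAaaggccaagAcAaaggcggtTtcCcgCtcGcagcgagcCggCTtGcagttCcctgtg
H2afv: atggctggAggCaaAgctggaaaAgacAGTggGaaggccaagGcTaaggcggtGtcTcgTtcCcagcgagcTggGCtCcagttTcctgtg
The H3.3 genes differed at 20 of these bases and at 95 of 408 coding bases, an identity of 76.7%. The H2A.Z genes differed at 19 of the bases shown and at 80 of 384 coding bases, an identity of 79.2%.

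Clustered histone mRNAs end in a stem-loop in place of a poly(A) tail. A stem-loop of this form was found after the stop codon in 1 of the 10 variants, H2afx, which is known to make both kinds of transcript. It is shown because it separates H2afx from the other members, with the stem in capitals and the loop in lower case.
H2afx: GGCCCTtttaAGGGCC
By the same search it was found in 46 of 67 clustered histone genes (68.7%) and in 62 of 22500 coding genes (0.276%). The libraries were made from total RNA depleted of ribosomal RNA, so transcripts with and without a poly(A) tail could both be sequenced.

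Total counts lay between 6463221 and 13155510 per tumour. The methods describe a knockout sample that was left out as a technical outlier in principal component analysis. KPH2 1 is the knockout tumour absent from the authors' 7-tumour table, and its values are given apart. Tests used KP 5 to KP 8 and KPH2 2 to KPH2 4, and were repeated with all 8 tumours. Epas1 had 59.2 to 86.9 counts per 1000000 (CPM) in KP, 37.7 to 53.4 in KPH2 2 to 4 and 32.6 in KPH2 1, a log2 fold change of -0.81 (SE 0.19) with an adjusted p of 0.0742 in edgeR. The 10 mesenchymal markers were counted in all 8 tumours, as were all 30 skeletal muscle, 12 macrophage, 10 T cell and 10 endothelial markers. The ribosomal precursor Rn45s took 1.08 to 2.79% of counts in KP, 3.58 to 9.83% in KPH2 2 to 4 and 6.71% in KPH2 1. Summed over 30 skeletal muscle genes, the level was 1837 to 3360 CPM in KP, 4351 to 19630 CPM in KPH2 2 to 4 and 1512 CPM in KPH2 1. In bulk tissue, fewer cells of a type and less RNA per cell cannot be told apart.

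No member passed the test between KPH2 and KP (edgeR quasi-likelihood test, Benjamini-Hochberg adjusted p under 0.05 over all genes tested). The count was 0 of 10, where 1.96% of all 14867 genes tested passed. It was again 0 of 10 with all 8 tumours, where 0.00675% passed. At an unadjusted p under 0.05 the count was 3 of 10 against 17.8% of all genes, and those 3, H3f3a, H3f3b and H1f0, were higher in KPH2, as were 8.5% of all genes at that p. Over all 8 tumours, 3 of 10 had an unadjusted p under 0.05, against 14.7%. The same 3 genes had groups that did not overlap and were higher in KPH2, against 8.73% of all genes, and 0 of 10 were lower without overlap, against 8.15%. With all 8 tumours, 2 of 10 did not overlap and were higher, against 3.76%, and 0 of 10 were lower, against 4.39%. DESeq2 called H3f3b over the 7 tumours (adjusted p = 0.0112), where 6.97% of genes passed, and H3f3a (0.0415) and H3f3b (0.024) over all 8, where 3.91% passed. The median log2 fold change of the members was -0.02, as it was for all genes, and 4 of 10 were above 0. The medians over all 8 tumours were 0.11 for the members and 0.00743 for all genes, and 7 of 10 members were above 0.

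**Figure D1:**
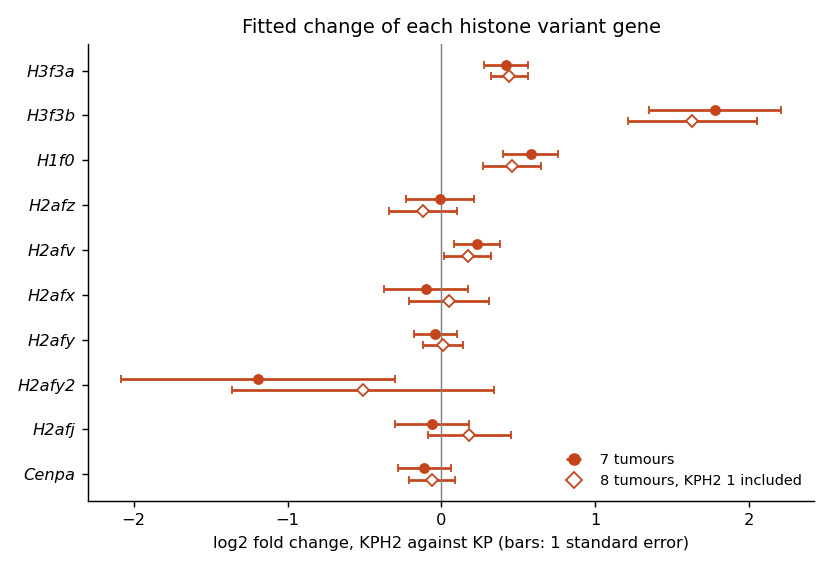
Log2 fold change of KPH2 against KP for each of the 10 variants from edgeR, with bars of 1 standard error, over 7 tumours and over all 8. H3f3b lies farthest above 0 and H2afy2 farthest below, with the widest bars.

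H3f3a and H3f3b were the members whose groups did not overlap with or without KPH2 1. H3f3a (chr1:180802560-180813605, minus strand, GRCm38.p6) stood at 34.4, 30.4, 36 and 35.4 CPM in KP 5 to KP 8, at 44.4, 48.2 and 44.0 CPM in KPH2 2 to KPH2 4, and at 48.4 CPM in KPH2 1. Every KPH2 tumour was above every KP tumour. The means were 34.1 ± 2.52 CPM (SD, n = 4) and 45.5 ± 2.36 CPM (SD, n = 3), a log2 fold change of 0.42 (SE 0.14), with an edgeR adjusted p of 0.161 (unadjusted 0.0147). With KPH2 1 the log2 fold change was 0.44 (SE 0.12) and the edgeR adjusted p was 0.184.

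H3f3b (chr11:116021961-116026039, minus strand) was the lowest member in KP, at 0.891, 1.7, 1.33 and 1.58 CPM in KP 5 to KP 8. It stood at 6.66, 2.3 and 5.18 CPM in KPH2 2 to KPH2 4 and at 2.88 CPM in KPH2 1. Again the groups did not overlap, and the KPH2 tumours ranged more widely than the KP tumours. The means were 1.38 ± 0.358 CPM (SD, n = 4) and 4.72 ± 2.22 CPM (SD, n = 3), a log2 fold change of 1.78 (SE 0.43) with an edgeR adjusted p of 0.0774. These values rest on 9 to 74 counts per library. Exact matches to transcripts of other loci covered 3.12% of the 100-base windows of H3f3b and 7.73% of those of H3f3a. Within 1 mismatch the shares were 11.62% and 13.71%, and only annotated transcripts were searched. H3f3a overlaps H3f3aos on the opposite strand. With KPH2 1 the log2 fold change was 1.63 (SE 0.42), with an edgeR adjusted p of 0.163.

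H1f0 (chr15:79028212-79030504, plus strand), the linker histone gene, stood at 88.1, 54.2, 82.6 and 79.4 CPM in KP 5 to KP 8 and at 107, 122 and 112 CPM in KPH2 2 to KPH2 4. KPH2 1, at 77.9 CPM, lay inside the KP range, unlike the other KPH2 tumours. The means were 76.1 ± 15 CPM (SD, n = 4) and 114 ± 7.83 CPM (SD, n = 3), a log2 fold change of 0.58 (SE 0.18) with an edgeR adjusted p of 0.148. With all 8 tumours the log2 fold change was 0.46 (SE 0.19), with an edgeR adjusted p of 0.321, and the groups overlapped. H1f0 overlaps the antisense gene Gm49544 on the opposite strand.

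**Figure D2:**
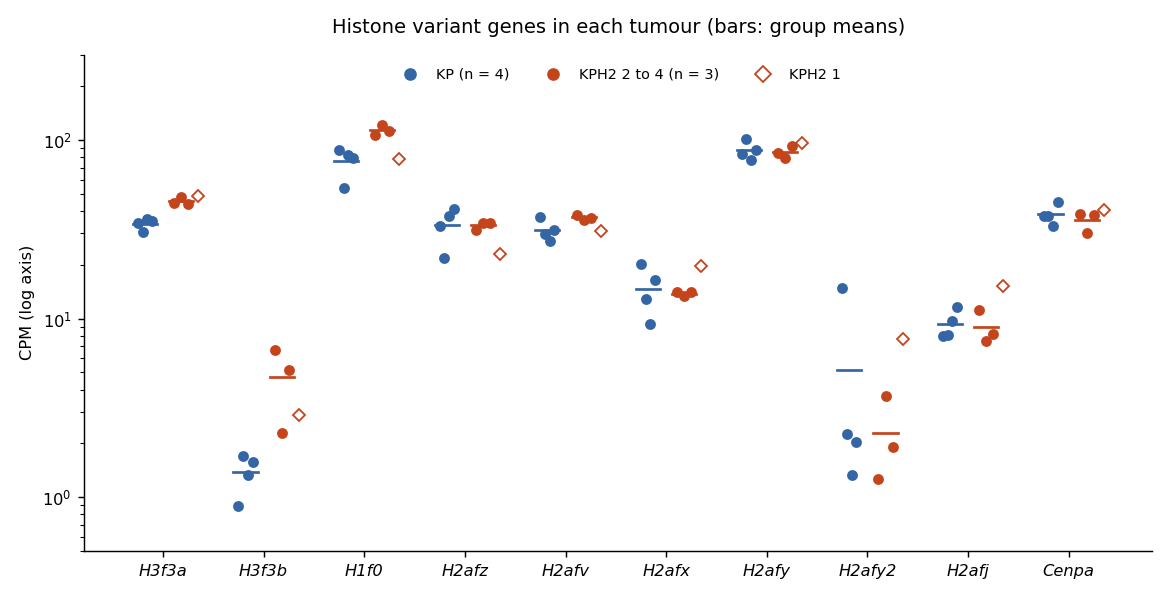
Level in CPM of each variant in each tumour, on a log axis, with points for tumours, bars for the means of KP (n = 4) and KPH2 2 to 4 (n = 3), and an open diamond for KPH2 1. For H3f3a the lowest KPH2 tumour is at 44.0 CPM and the highest KP tumour at 36 CPM, and for H2afy2 KP 5 is at 14.9 CPM.

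Rn45s and muscle RNA differed between the same groups as these 3 genes. All 4 KPH2 tumours had a larger share of Rn45s than the highest KP tumour. Muscle genes were higher in KPH2 2 to 4 than in KP, and KPH2 1 had the lowest muscle level of the 8 tumours. H3f3a and H3f3b were above KP in KPH2 1 as well, whereas H1f0 was not. With a muscle score as a covariate, the log2 fold changes were 0.31 for H3f3a, 2.38 for H3f3b and 0.40 for H1f0. Their edgeR adjusted p-values were 0.918, 0.539 and 0.917. The fit used KP and KPH2 2 to 4, whose summed muscle levels did not overlap (1837 to 3360 against 4351 to 19630 CPM). It therefore could not separate muscle from genotype, and over all genes its calls fell from 292 to 3. These values do not show how much of each difference follows muscle. The part of Rn45s in the differences of these 3 genes was not tested.

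**Figure D3:**
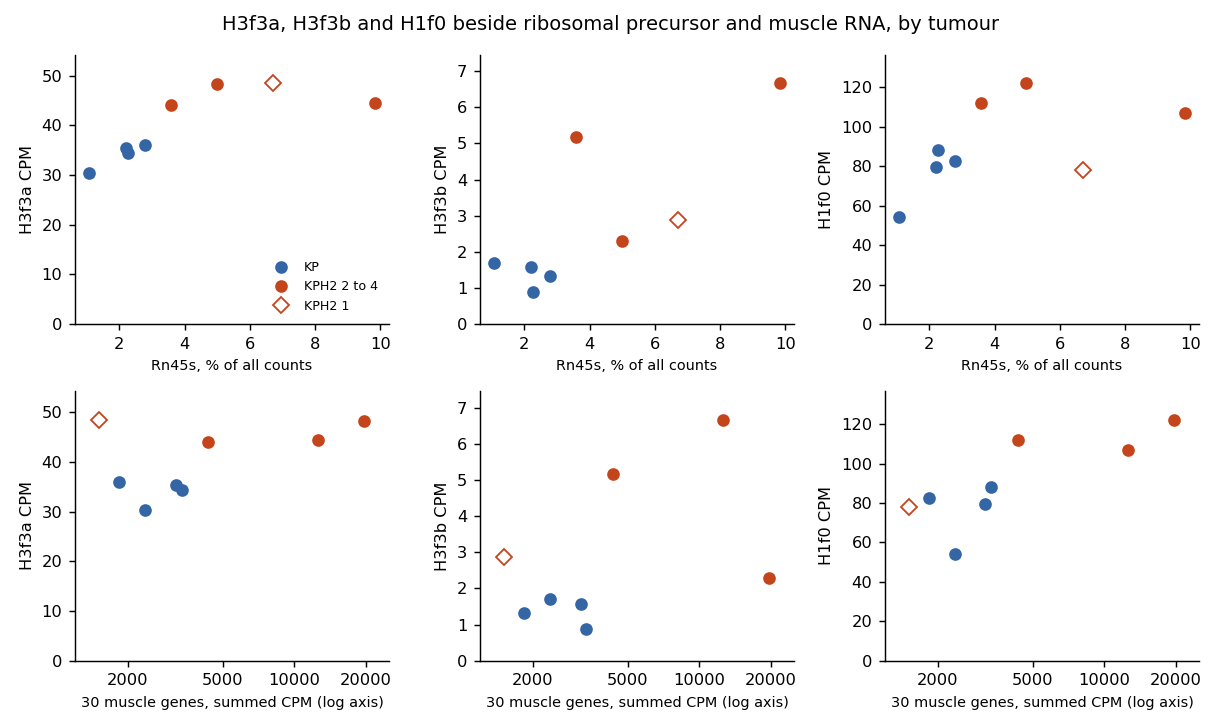
CPM of H3f3a, H3f3b and H1f0 in each tumour against the share of counts from Rn45s (upper row) and against the summed CPM of 30 muscle genes on a log axis (lower row). KPH2 1 combines 6.71% Rn45s with 1512 CPM of muscle genes, and has H3f3a at 48.4 CPM and H1f0 at 77.9 CPM.

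The promoters of these 3 genes are shown because their groups separated. Each is the 250 bases before a transcript start in the RefSeq table of GRCm38.p6, with GCGTG, a core of the element bound by hypoxia-inducible factors, in capitals where it occurs on the strand printed.
H3f3a, chr1:180813606-180813855, minus strand: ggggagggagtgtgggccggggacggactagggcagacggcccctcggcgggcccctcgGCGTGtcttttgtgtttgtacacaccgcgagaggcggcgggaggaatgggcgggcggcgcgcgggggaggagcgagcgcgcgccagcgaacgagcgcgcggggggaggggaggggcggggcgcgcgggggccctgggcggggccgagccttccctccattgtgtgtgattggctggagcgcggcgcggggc
H3f3b, chr11:116024505-116024754, minus strand: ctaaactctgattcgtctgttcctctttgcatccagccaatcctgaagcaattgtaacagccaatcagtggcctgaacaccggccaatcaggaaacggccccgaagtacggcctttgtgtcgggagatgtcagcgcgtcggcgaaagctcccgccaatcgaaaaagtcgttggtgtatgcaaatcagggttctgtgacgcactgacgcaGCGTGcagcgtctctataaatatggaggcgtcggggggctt
H1f0, chr15:79027962-79028211, plus strand: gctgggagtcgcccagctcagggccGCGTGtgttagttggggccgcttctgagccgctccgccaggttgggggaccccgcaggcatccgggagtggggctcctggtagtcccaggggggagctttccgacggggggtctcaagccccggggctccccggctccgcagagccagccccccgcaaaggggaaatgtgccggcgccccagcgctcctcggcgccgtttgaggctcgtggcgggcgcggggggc
For H3f3b this start lies inside the annotated gene, downstream of its outermost start, and the windows of H2afv, H2afy, H2afy2 and Cenpa also overlap their annotated genes. The RefSeq table matched 9 of the 10 members. Searched on both strands, GCGTG was in 6 of the 9 and in 28.2% of all 32851 promoters, ACGTG was in 3 of the 9 and in 16.6%, and CCAAT, the CCAAT-box core, was in 6 of the 9 and in 33.8%. A match is a run of letters and not a bound site. GC content ran from 48.8 to 77.2% among the members, beside a median of 52.4% over all promoters.

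H2afz (chr3:137864487-137866922, plus strand) had the same mean in both groups. It stood at 32.9, 21.8, 37.5 and 41.2 CPM in KP 5 to KP 8, at 31.5, 34.1 and 34.1 CPM in KPH2 2 to KPH2 4, and at 23.0 CPM in KPH2 1. The KP tumours enclosed all KPH2 values, and the means were 33.3 ± 8.42 CPM (SD, n = 4) and 33.3 ± 1.52 CPM (SD, n = 3). Of its 100-base windows, 58.76% matched transcripts of other loci exactly, so its count of unique alignments is uncertain. H2afv (chr11:6427226-6444511, minus strand), the other H2A.Z gene, shared no such window. It stood at 37.0, 29.7, 27.1 and 31.5 CPM in KP 5 to KP 8, at 38.2, 35.7 and 36.6 CPM in KPH2 2 to KPH2 4, and at 30.9 CPM in KPH2 1. KP 5 overlapped the KPH2 range, and the log2 fold change was 0.23 (SE 0.15) with an edgeR adjusted p of 0.488.

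H2afx (chr9:44334715-44336077, plus strand), the variant of the DNA damage response, stood at 20.3, 12.9, 9.34 and 16.4 CPM in KP 5 to KP 8. In KPH2 2 to KPH2 4 it was at 14.1, 13.3 and 14.0 CPM, and in KPH2 1 at 19.8 CPM. The 3 KPH2 tumours lay within the KP range and close together, and KPH2 1 lay near KP 5. The log2 fold change was -0.10 (SE 0.27) with an edgeR adjusted p of 0.885, and 0.05 (SE 0.26) with KPH2 1.

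H2afy (chr13:56073622-56135626, minus strand), the main macroH2A gene here, stood at 83.8, 101, 76.9 and 88.4 CPM in KP 5 to KP 8, at 84.7, 79.2 and 92.2 CPM in KPH2 2 to KPH2 4, and at 96.8 CPM in KPH2 1. All KPH2 values fell within the KP range, and the log2 fold change was -0.04 (SE 0.14) with an edgeR adjusted p of 0.926. H2afy2 (chr10:61738640-61784604, minus strand), the second macroH2A gene, was set apart by 2 libraries. KP 5 held 14.9 CPM and KPH2 1 held 7.67 CPM, while KP 6 to KP 8 held 2.26, 1.33 and 2.04 CPM and KPH2 2 to KPH2 4 held 1.26, 3.7 and 1.92 CPM. Its log2 fold change was -1.19 (SE 0.89) with an edgeR adjusted p of 0.543, and 0.28 without KP 5 (adjusted p of 0.803 in edgeR). It was -0.51 (SE 0.85) with all 8 tumours, and with the muscle covariate -2.75. Of the 100-base windows of H2afy2, 1.16% were within 1 mismatch of H2afy3 or Pvt1 transcripts, which were also high in KPH2 1 (148 and 698 CPM), and the part of this in its value was not tested. H2afy2 overlaps Aifm2 on the opposite strand, and H2afy overlaps the antisense gene Gm47071 there. The strand setting of the counting is not given in the sources used here, for these or for the other members.

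H2afj (chr6:136808248-136810074, plus strand) stood at 7.95, 8.06, 9.64 and 11.6 CPM in KP 5 to KP 8, at 11.1, 7.51 and 8.23 CPM in KPH2 2 to KPH2 4, and at 15.3 CPM in KPH2 1. KPH2 1 was the highest of the 8, and the KP range overlapped KPH2 2 to 4. The log2 fold change was -0.06 (SE 0.24) with an edgeR adjusted p of 0.928, and 0.18 (SE 0.27) with KPH2 1.

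Cenpa (chr5:30666877-30674837, plus strand), the centromeric H3 variant, stood at 37.6, 37.5, 33.1 and 45.2 CPM in KP 5 to KP 8, at 38.7, 30.3 and 37.8 CPM in KPH2 2 to KPH2 4, and at 40.4 CPM in KPH2 1. The groups overlapped, with a log2 fold change of -0.11 (SE 0.17) and an edgeR adjusted p of 0.79. It was -0.01 without KPH2 3, -0.02 without KP 8 and -0.17 without KP 7 or KPH2 2.

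Per kilobase of exon, H2afy was the highest variant in KP at 40.9 ± 4.72 CPM per kb (SD, n = 4). It was followed by H1f0 at 37.0 ± 7.31, H2afz at 31.2 ± 7.88, Cenpa at 26.1 ± 3.44 and H2afv at 19.2 ± 2.56 CPM per kb. Because 58.76% of the 100-base windows of H2afz matched other transcripts exactly, its level may be too low. The place of H2afz is therefore uncertain, and H2afy may not be the highest. Neighbours in this order overlapped between tumours, down to the step from H2afv to H3f3a, at 12 ± 0.886 CPM per kb, where the lowest tumour of one was above the highest of the next. H2afx, at 10.6 ± 3.41, was likewise above H2afj, at 5.09 ± 0.939 CPM per kb. H2afy2, at 2.36 ± 2.99, and H3f3b, at 0.691 ± 0.179 CPM per kb, were the lowest and overlapped. In KPH2 2 to 4, H1f0 came first at 55.3 ± 3.81 CPM per kb (SD, n = 3) and H2afy next at 39.9 ± 3.06, and H3f3b, at 2.37 ± 1.11, had a higher mean than H2afy2, at 1.05 ± 0.581 CPM per kb, although KPH2 3 had them the other way, at 1.15 and 1.7 CPM per kb.

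Ratios within a tumour do not depend on scaling between libraries, and 6 were compared by a 2-sided exact permutation test over 35 splits, whose smallest p is 0.029. H3f3a exceeded H3f3b by a log2 ratio of counts of 4.67 ± 0.47 in KP (SD, n = 4) and 3.40 ± 0.87 in KPH2 (SD, n = 3), with an exact p of 0.057 and 0.17 after Benjamini-Hochberg adjustment. KPH2 3, at 4.39, lay inside the KP range of 4.16 to 5.27. The log2 ratio of H2afz to H2afv was 0.06 ± 0.44 in KP and -0.15 ± 0.11 in KPH2 (exact p = 0.43, adjusted 0.51), and the difference of -0.21 was -0.07 without KP 7, -0.1 without KP 8 and -0.38 without KP 6. Because 58.76% of the 100-base windows of H2afz, and 0% of those of H2afv, matched other transcripts exactly, the size of this ratio is uncertain. The log2 ratio of H2afy to H2afy2 was 4.82 ± 1.56 and 5.36 ± 0.85 (exact p = 0.74, adjusted 0.74), and its difference of 0.54 became -0.23 without KP 5.

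The variants were next set against clustered genes of their class, whose near-identical copies make counts of unique alignments uncertain. The 6 H2A variants summed to 181 CPM in KP and 180 CPM in KPH2, while 19 clustered H2A genes summed to 33.4 and 60.5 CPM. The log2 ratio of variants to clustered H2A genes was 2.52 ± 0.46 in KP (SD, n = 4) and 1.58 ± 0.14 in KPH2 (SD, n = 3), a difference of -0.94 (exact p = 0.057, adjusted 0.17). KPH2 2 to 4 lay below every KP tumour, and KPH2 1, at 2.03, lay just above the lowest KP tumour, at 1.99. For the H3.3 genes against 12 clustered H3 genes the difference was -0.35 (exact p = 0.4, adjusted 0.51), and it was -0.17 without KP 6, -0.18 without KP 7, -0.55 without KP 8 and -0.13 with all 8 tumours, with both sums higher in KPH2, 35.4 and 50.2 CPM for H3.3 and 58.9 and 99.7 CPM for the clustered genes. For H1f0 against 6 clustered H1 genes it was -0.38 (exact p = 0.11, adjusted 0.23). Both were higher in KPH2, at 76.1 and 114 CPM for H1f0 and 238 and 467 CPM for the clustered genes. With a smallest exact p of 0.029, at least 4 of the 6 ratios would have to reach it for any to pass the adjusted threshold, so the adjusted values say little, and none passed.

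**Figure D4:**
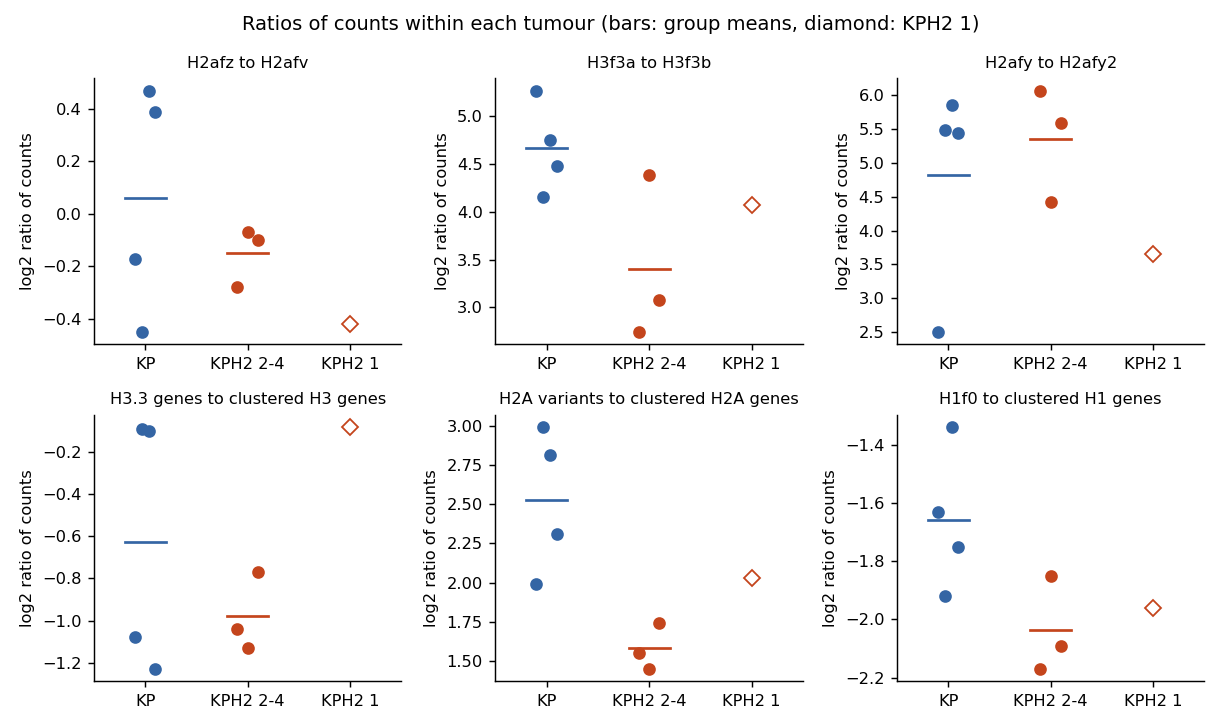
Log2 ratio of counts within each tumour for the 3 gene pairs and the 3 comparisons of variants with clustered genes, by group, with bars for group means and KPH2 1 as an open diamond. The ratio of H2A variants to clustered H2A genes is lower in KPH2 2 to 4 than in each KP tumour.

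Of the clustered histone genes themselves, 56 of 69 were tested, 3 rose in KPH2 and 0 fell (Hist1h1e, log2 fold change 0.97, adjusted p = 0.0234; Hist1h2bj, 1.68, 0.0386; Hist1h2bc, 1.33, 0.0418; edgeR), where 1.96% of all genes passed in either direction, with a median log2 fold change of 0.86 beside -0.02 over all genes. At an unadjusted p under 0.05, 26 were higher, against 8.5% of all genes, and 1 was lower. With all 8 tumours 0 were called and the median was 0.74.

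Several members are known to be expressed with the cell cycle, and each was compared with the mean log2 CPM of 25 proliferation genes over the 8 tumours. The score was 5.90 ± 0.18 in KP (SD, n = 4), 5.98 ± 0.03 in KPH2 2 to 4 (SD, n = 3) and 6.21 in KPH2 1. Over the 8 tumours the highest Pearson correlations were those of H2afx (r = 0.73, permutation p = 0.0404; Spearman rho = 0.57, permutation p = 0.151) and H2afy2 (r = 0.72, permutation p = 0.0475; rho = 0.71, permutation p = 0.0576). The lowest was that of H2afz (r = -0.68, permutation p = 0.0606; rho = -0.60, permutation p = 0.132). None of the 10 passed Benjamini-Hochberg adjustment, with a lowest adjusted p of 0.202 by permutation. Without KP 7 and KPH2 1, the tumours farthest from the median score, r was 0.13 for H2afx, 0.60 for H2afy2, -0.47 for H2afz, -0.82 for H2afj (0.12 over all 8 tumours, permutation p = 0.779, rho = -0.1, permutation p = 0.84) and -0.62 for Cenpa, so the relation of H2afx rests on those tumours. Without KPH2 1 alone, r was 0.73 for H2afv (permutation p = 0.0627, from 0.42 over 8 tumours) and 0.62 for H2afx (permutation p = 0.15). Cenpa, whose expression is tied to G2, had r = 0.09 (permutation p = 0.851; rho = 0.17, permutation p = 0.703).

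**Figure D5:**
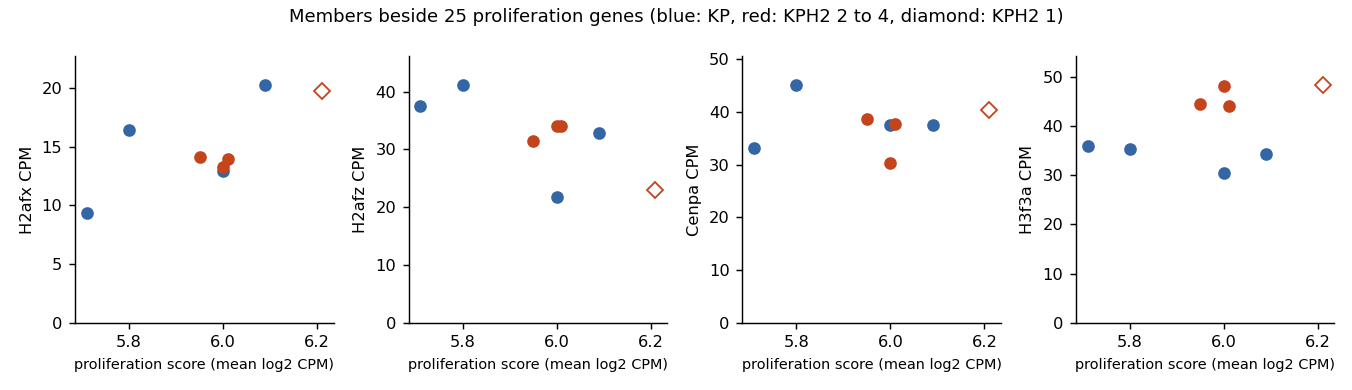
CPM of H2afx, H2afz, Cenpa and H3f3a against the mean log2 CPM of 25 proliferation genes in each of the 8 tumours, marked by group. KPH2 1 has the highest score, 6.21.

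The factors that place or read the variants were listed by pathway, and 0 genes passed in each list (edgeR adjusted p under 0.05), where 1.96% of all genes passed and 17.8% had an unadjusted p under 0.05. Of 8 H3.3 chaperone genes, 0 were called at an unadjusted p under 0.05 and the median log2 fold change was -0.18, with Ubn1, a HIRA-complex subunit, at -0.26 and Daxx at -0.24. Of 14 genes of the H2A.Z exchange complexes, 0 had an unadjusted p under 0.05 and the median was 0.01, with Brd8, of the p400 complex, at -0.29 and Vps72, an H2A.Z-binding subunit, at 0.27. Of 12 tested genes for CENP-A loading and its centromeric partners, 1 had an unadjusted p under 0.05, Cenpt, at 0.41 (edgeR adjusted p = 0.19), and the median was 0.05. Of 13 genes that signal from H2A.X, 1 had an unadjusted p under 0.05, the ubiquitin ligase gene Rnf168, at -0.39 (edgeR adjusted p = 0.205), and the median was -0.07. Of 11 general histone chaperone genes 0 had an unadjusted p under 0.05 and the median was 0.15. There, 9 of 11 were above 0, with Supt16h, of the FACT complex, at 0.28, Nap1l1 at -0.38 and Nap1l4 at -0.32. Of 9 genes that process replication-dependent histone mRNA, 1 had an unadjusted p under 0.05, Lsm11, of the U7 particle, at -0.58 (edgeR adjusted p = 0.235) and at -0.32 with all 8 tumours, and the median was 0.04. All of these medians are log2 fold changes of KPH2 against KP. Over all 8 tumours, 0 genes passed in any of these lists, and the medians were -0.02 for the H3.3 chaperones, with 4 of 8 above 0 in place of 2, and 0.05 for the H2A.X list, which turned its sign.

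Of 12 further variant genes listed, 8 were in the table and 1 was tested, Hist3h2a, with 40 to 209 counts per library and a log2 fold change of 0.57 (edgeR adjusted p = 0.406). H1fx had 0 to 19 counts per library, Hist3h2ba 1 to 11, Hils1 0 to 6, H1foo and H3f3c 0 to 4, and H1fnt and H2afb1 had 0 in every library.

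The genes most like each member were taken by Pearson correlation of log2 CPM over the 8 tumours, which share their libraries and depth, and are given as a description. H3f3a was most like Ubtf (0.983), Noc4l (0.975) and Trmt5 (0.97). H3f3b was most like Hist2h2be (0.952), Rps3a (0.951) and Tspan8 (0.945). The 3 genes most like H2afj encode ribosomal proteins, Rpl35a (0.98), Rpl12 (0.96) and Rpl17 (0.951). H1f0 was most like Sept9 (0.988), H2afx like Ttc23 (0.983), and Cenpa like Hscb (0.977). Between members, the highest correlations were those of H2afy2 with H2afx (0.78), which are both highest in KP 5 and KPH2 1, and of H1f0 with H3f3a (0.74), and the lowest was that of H2afy with H2afz (-0.74).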

How the data were processed

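RNA was extracted from FFPE tumour sections and sequenced after ribosomal RNA depletion with a stranded kit. Reads were aligned by the authors with STAR 2.4 (GRCm38), who counted unique alignments with HTSeq 0.6.1, and deposited raw counts per gene for 8 tumours, not normalized. Also deposited were log2 values (rlog of DESeq2 1.6) over 7 and 8 tumours, used here only as an alternative. CASAVA 1.8.2 is named in the submitters' processing notes.

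Counts were tested in R 4.3.3 with edgeR 4.0.16 (TMM, low-count filter with minimum count 10 and minimum total 15, robust quasi-likelihood test). Benjamini-Hochberg adjusted p-values covered every gene tested, with a threshold of 0.05. CPM used TMM library sizes over 8 tumours, and log2 CPM a prior count of 2. Total counts ran from 6463221 to 13155510. Positions came from RefSeq (GRCm38.p6), and transcripts from GENCODE. Ratios and correlations were tested by permutation over tumours. Tests were tried on simulated data. Alternatives were all 8 tumours, other scalings and filters, DESeq2 1.42.0, a muscle covariate and leaving out each tumour.

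Genes named are the members, Epas1, up to 4 genes of smallest p per list, and up to 3 genes most correlated with each member. Rn45s, overlapping genes, variant genes too low to test, H2afy3, Pvt1 and Myc were named outside this rule, and H2afy3, Pvt1 and Myc were chosen after their values were seen. The members and lists were chosen with earlier results of these data known. A further engineered allele that both groups carry is not reported here.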

Additional observations from a re-analysis of the deposited data

Results flagged for a closer look

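H2afx in KPH2 was set apart by KPH2 1, whose log2 CPM lay above the other KPH2 tumours by a gap of 0.85 of the group's whole range. The ratio of H2afy to H2afy2 in KP was set apart by KP 5, the lowest tumour, with a gap of 0.877 of the range. Both exceed Dixon's critical value for 4 samples. Chance gives about 1 such group in 20, and 34 groups were examined.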

How the results depend on the processing

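No paired analysis was run, because the labels pair no KP tumour with a KPH2 tumour. The count of members called was 0 in edgeR under every alternative run and whichever tumour was left out. The fit with the muscle covariate could not separate muscle from genotype, so its counts and fold changes say little. DESeq2 called 1 member over the 7 tumours and 2 over all 8, and the cause was not tested. Over all genes edgeR called 292, against 1 with all 8 tumours, 3 with the muscle covariate and 55 to 349 when 1 tumour was left out, and DESeq2 called 1166 and, over all 8 tumours, 641. H3f3a, H3f3b and H1f0 stayed higher in KPH2 under each alternative run, except that H3f3b was not tested with a mean count of at least 50, with log2 fold changes of 0.37 to 0.44, 1.44 to 2.11 and 0.44 to 0.67 when 1 tumour was left out. In the authors' rlog values the difference was 0.27 for H3f3a and 0.66 for H3f3b (0.89 over all 8 tumours). For H2afy2 it was -0.31 (-0.1 over all 8 tumours), against -1.19 in edgeR over 7 tumours. Genes near 0 changed sign. With all 8 tumours, H2afx was at 0.05 (0.05 in DESeq2, 0.07 in rlog), H2afy at 0.01 (0.01 in DESeq2, 0.01 in rlog) and H2afj at 0.18 (0.18 in DESeq2, 0.1 in rlog). With the muscle covariate H2afy was at 0.11, H2afx at -0.47, H2afv at 0.08, H2afj at -0.16 and H2afz at -0.12, and H2afz was at 0.02 in rlog values over 7 tumours. When 1 tumour was left out, the log2 fold change ran from -0.27 to 0.1 for H2afx, -0.16 to 0.11 for H2afz, -0.09 to 0.04 for H2afy, -1.72 to 0.28 for H2afy2 and -0.25 to 0.06 for H2afj, and the log2 ratio difference of H2afy to H2afy2 from -0.23 to 1.01. Without KPH2 1 the correlation with proliferation was -0.66 for H2afj and -0.09 for Cenpa. Low counts limit H3f3b and H2afy2.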

Other observations

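A macroH2A-related locus stood apart in KPH2 1 and was chosen after its values were seen. H2afy3 (chr15:62217541-62219451, GRCm38.p6), annotated as a pseudogene, had 148 CPM in KPH2 1 and 5.9 to 11.9 CPM in the other 7 tumours. It lies within Pvt1 (chr15:62037986-62260215), at 698 CPM in KPH2 1 and 29.6 to 55.7 CPM elsewhere. Myc (chr15:61985341-61990361) nearby had 257 CPM in KPH2 1 and 49.5 to 88.4 CPM in the others. DNA copy number was not measured in these data.

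Markers of other cells differed as follows between KP and KPH2 2 to 4. Of 30 skeletal muscle genes 3 rose and 0 fell in edgeR, where 1.96% of all genes passed (Eno3, Myoz2 and Neb; median log2 fold change 2.2), 29 had an unadjusted p under 0.05, against 17.8% of all genes, and 30 were above 0. Likewise, of 10 mesenchymal genes 1 fell, Pdgfra (log2 fold change -2.02, edgeR adjusted p = 0.0183). With all 8 tumours 0 genes of either list were called (edgeR adjusted p = 0.159 for Eno3 and 0.16 for Pdgfra). None of the 12 macrophage, 10 T cell, 10 endothelial and 4 tested adipocyte genes passed edgeR's adjusted threshold (medians -0.58, -0.57, -0.56 and 0.03, with 5, 0, 4 and 1 at an unadjusted p under 0.05, against the same 17.8%).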
